A study of Danio rerio with 6 samples.

Results

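The cadherins, protocadherins and catenins are the core of the adhesion machinery that holds the cells of the blastoderm together while they move. The genes were chosen by name, as every gene whose zebrafish symbol begins with cdh and a digit, pcdh, ctnna, ctnnb1, ctnnb2 or ctnnd, or is papc. This gave 93 genes of the 32266 measured. They comprised 8 catenins, 16 classical cadherins, 11 other cadherins, 21 non-clustered protocadherins and 37 clustered protocadherins.

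RNA was sequenced from whole embryos of the Tubingen (TU) strain at 50% epiboly, the onset of gastrulation, in 3 wild-type (WT) and 3 MZsmad4a libraries. Each library was made from 25 pooled embryos. MZsmad4a embryos lack both the maternal and the zygotic function of smad4a, which encodes the shared partner of the receptor-activated Smads in Nodal and BMP signalling, and they carry smad4aΔ14, a single frameshift allele made by genome editing. WT embryos carry no edited smad4a allele, and the labels name no treatment for either genotype. The comparison asks which adhesion genes differ in RNA level between the genotypes when the germ layers are being laid down. MZsmad4a embryos came from homozygous mutant parents and WT embryos from other parents. Loss of smad4a and parental background therefore cannot be told apart.

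Classical cadherins are transmembrane proteins that bind the same protein on the neighbouring cell. Inside the cell, β-catenin and p120-catenin (δ-catenin) bind the cadherin tail, and α-catenin links β-catenin to actin. β-catenin is also the nuclear effector of canonical Wnt signalling, and in zebrafish the maternal ctnnb2 (ichabod) specifies the dorsal organizer. E-cadherin (cdh1) is required for epiboly, N-cadherin (cdh2) for later morphogenesis of mesoderm and neural tissue, and the paraxial protocadherin papc (pcdh8) for convergence of the mesoderm.

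The libraries held 9807865 to 20833491 expected counts, and the shallowest was WT replicate 1. The targeted gene followed the labels, since smad4a was at 54.6, 62.2 and 60.7 CPM (counts scaled to library size) in WT and at 13.1, 15.3 and 14.6 CPM in MZsmad4a (log2 fold change -2.05, SE 0.13, edgeR quasi-likelihood adjusted p = 0.000546). The pools were whole embryos, and markers of their cell types were therefore read beside the adhesion genes. The summed TPM (a level per transcript length, scaled to the same total in every library) of 8 enveloping layer markers was 7652 to 9093 in WT and 7740 to 8702 in MZsmad4a. The 5 markers of the margin mesendoderm summed to 848 to 958 TPM in WT and to 450 to 635 TPM in MZsmad4a, without overlap. The 5 ectoderm markers summed to 1161 to 1285 TPM in WT and to 1331 to 1442 TPM in MZsmad4a, also without overlap. The 5 yolk syncytial layer markers summed to 746 to 868 and 712 to 1047 TPM, and 7 markers of tissues not yet formed to no more than 4.79 TPM in any library. At an edgeR adjusted p under 0.05, 1 yolk syncytial layer marker was lower in MZsmad4a (against 1.67% of all genes). At the same threshold 1 ectoderm marker was higher (against 1.26% of all genes). In pooled whole embryos, fewer cells of a type and less RNA per cell cannot be told apart.

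At this stage a few members carried nearly all of the adhesion RNA. Of the 93 genes, 8 had a mean level over 100 TPM, 4 lay between 10 and 100 TPM, 11 between 1 and 10 TPM, and 47 at 1 TPM or less with some counts. The other 23 had no count in any library, and a count of 0 allows at most 0.143 to 0.283 CPM per library, taken as 3 counts and covering counting error only. The 9 most abundant genes held 95.9 to 97.2% of the TPM of all members. Catenins made up 68.0% of it on average, classical cadherins 18.9%, non-clustered protocadherins 12.7%, other cadherins 0.281% and clustered protocadherins 0.0885%.

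**Figure D1:**
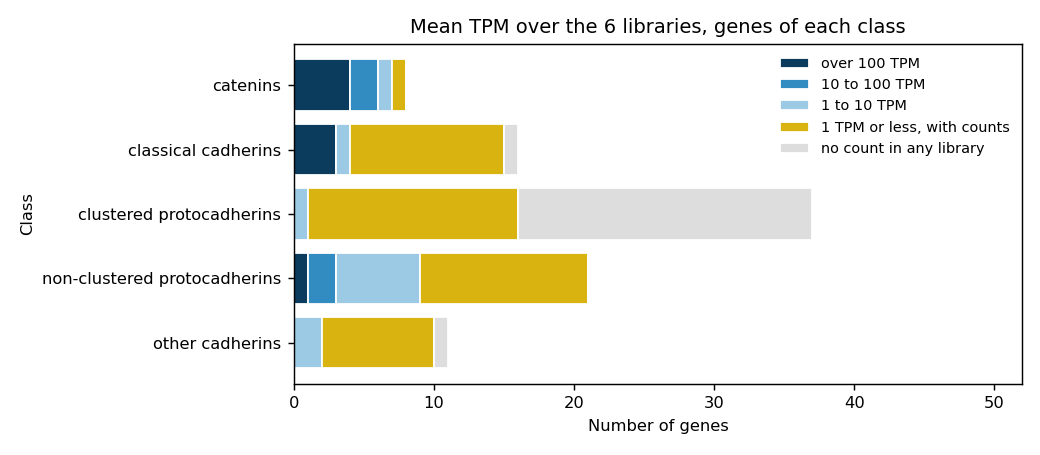
Number of genes in each class (horizontal bars) by mean TPM over the 6 libraries. All 8 catenins had counts, whereas 21 of the 37 clustered protocadherins had none.

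The summed level of all members was close in the genotypes, at 3158, 3051 and 2997 TPM in WT and 2994, 2878 and 2868 TPM in MZsmad4a, with the lowest WT library just above the highest mutant library. The catenins summed to 2089 ± 83.7 TPM in WT and 1978 ± 71.1 TPM in MZsmad4a, the classical cadherins to 569 ± 9.31 and 564 ± 94.5 TPM, and the non-clustered protocadherins to 399 ± 49.7 and 361 ± 45.5 TPM (mean ± SD, n = 3). For all 3 classes the ranges of the genotypes overlapped.

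Of the 93 genes, 35 had enough counts to be tested (7 catenins, 7 classical cadherins, 4 other cadherins, 15 non-clustered and 2 clustered protocadherins). None of the 35 passed an adjusted p of 0.01 in edgeR's quasi-likelihood test (Benjamini-Hochberg over 15720 genes), against a background of 0.712% of all genes tested. DESeq2 called 2 of the 42 members to which it gave an adjusted p, PCDH18 higher and pcdh10b lower in MZsmad4a, against 3.71% of all genes (1.78% higher and 1.94% lower). At an adjusted p of 0.05, edgeR called the same 2 genes, pcdh10b lower and PCDH18 higher in MZsmad4a, against 2.93% of all genes (1.67% lower and 1.26% higher). At an unadjusted p of 0.05 there were 10 of 35, of which 5 were lower and 5 higher, against 17.5%. The CPM of the genotypes did not overlap for 10 of the 35 (28.6%), 5 in each direction, against 23.6% of all genes (11.8% in each direction). The median log2 fold change of the 35 was 0.03, beside -0.01 for all genes tested, and 20 were positive and 15 negative.

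**Figure D2:**
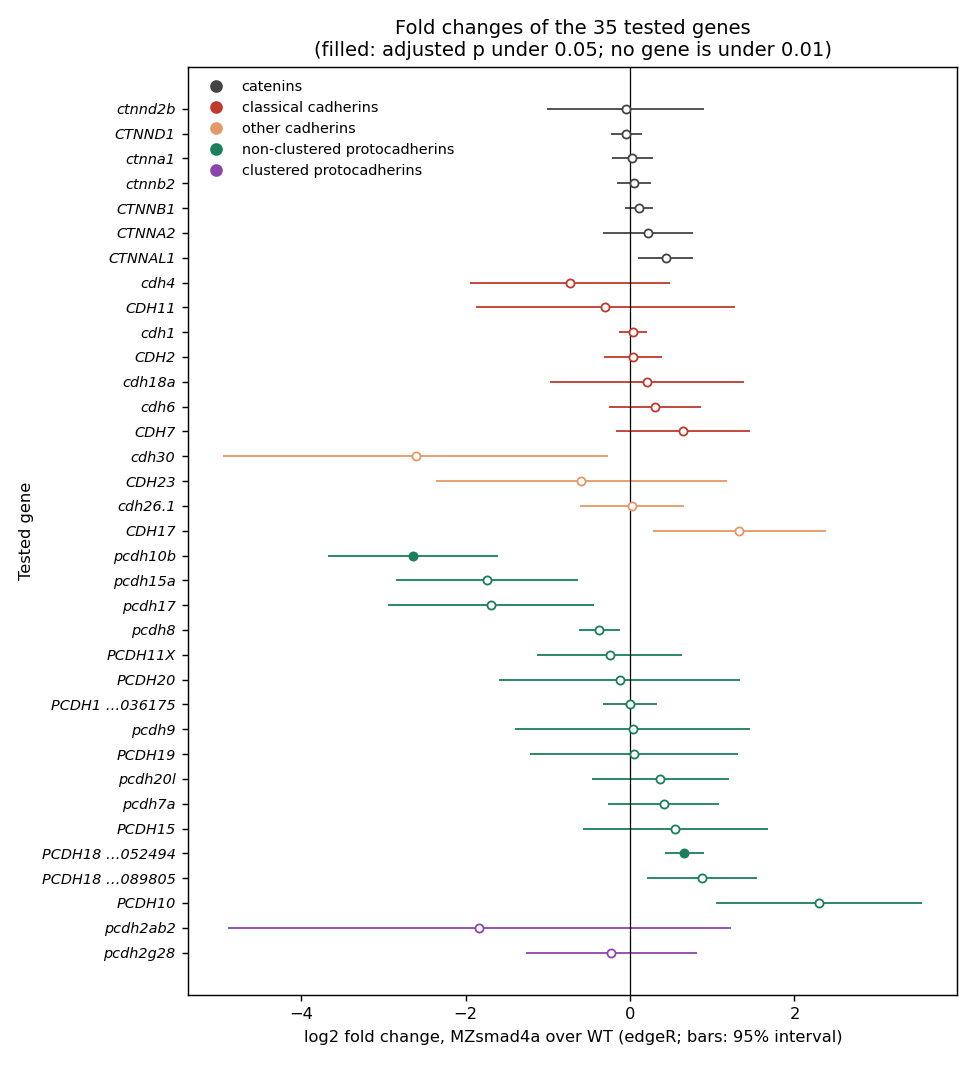
log2 fold change of MZsmad4a over WT for the 35 tested genes with the 95% interval of edgeR's test (horizontal axis), ordered by class. The abundant catenins and cdh1 lie close to 0 with narrow intervals, and the filled points are pcdh10b (-2.64) and PCDH18 (0.66). Genes that share a symbol carry the last digits of their identifier.

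The 4 most abundant catenins had closely similar levels in both genotypes. CTNNB1 (ENSDARG00000014571), the β-catenin gene with the highest level of all members, was at 911, 908 and 786 TPM in WT and at 836, 873 and 857 TPM in MZsmad4a. In CPM it was at 1540, 1703 and 1461 in WT and at 1687, 1681 and 1701 in MZsmad4a (log2 fold change 0.11, SE 0.08, 95% interval -0.07 to 0.28, edgeR adjusted p = 0.534). The ranges overlapped, and the mutant libraries lay within the WT range.

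The second β-catenin gene, ctnnb2 (ENSDARG00000023472), was at 390, 415 and 404 CPM in WT and at 380, 404 and 463 CPM in MZsmad4a (log2 fold change 0.04, SE 0.09, 95% interval -0.16 to 0.25). CTNNB1 exceeded ctnnb2 in every library, with a TPM ratio of 2.76, 2.82 and 2.44 in WT and 2.98, 2.83 and 2.52 in MZsmad4a. The ranges of the ratio overlapped between the genotypes, and the difference was not tested.

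CTNND1 (ENSDARG00000078233), p120-catenin, which stabilizes cadherins at the membrane, was at 648, 621 and 673 CPM in WT and at 577, 627 and 676 CPM in MZsmad4a (log2 fold change -0.05, SE 0.08, 95% interval -0.24 to 0.14). The α-catenin gene ctnna1 (ENSDARG00000102441) was at 570, 727 and 556 CPM in WT and at 617, 633 and 641 CPM in MZsmad4a (0.03, SE 0.11, 95% interval -0.22 to 0.28). In both genes the genotypes overlapped. The signs of CTNNB1, ctnnb2 and ctnna1 turned when libraries were scaled by total alone, which moved the median of all genes to -0.11.

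Among the low catenins, CTNNAL1 (α-catulin, an α-catenin relative) was the only one whose genotypes did not overlap, and it was named after its values were seen. It was at 16.1, 20.3 and 17.9 CPM in WT and at 25.7, 23.7 and 24.0 CPM in MZsmad4a (log2 fold change 0.43, SE 0.14, edgeR adjusted p = 0.173). CTNNA2 (αN-catenin) and ctnnd2b (δ2-catenin), both best known from neurons, had log2 fold changes of 0.22 and -0.05.

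**Figure D3:**
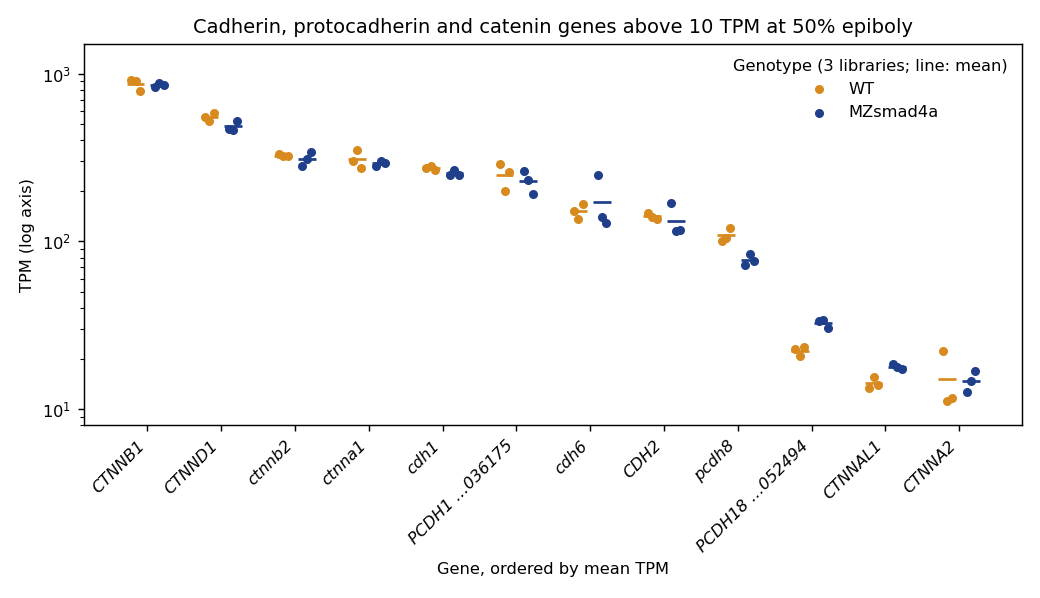
TPM (log axis) of the 12 genes above 10 TPM in each library (points) with the genotype mean (line), ordered by mean TPM. CTNNB1 is highest at 786 to 911 TPM. The genotypes do not overlap for pcdh8, PCDH18, CTNNAL1 and cdh1.

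3 classical cadherins were expressed at substantial level, in the order cdh1, cdh6 and CDH2 by mean TPM over the 6 libraries. The order of cdh6 and CDH2 depended on the unit. In TPM, cdh6 exceeded CDH2 in every library except WT replicate 2. In CPM, CDH2 exceeded cdh6 in every library except MZsmad4a replicate 1. The E-cadherin gene cdh1 (ENSDARG00000102750) was at 403, 448 and 414 CPM in WT and at 426, 436 and 433 CPM in MZsmad4a (log2 fold change 0.03, SE 0.07, 95% interval -0.13 to 0.20, edgeR adjusted p = 0.856). The mutant libraries lay within the WT range. In TPM the level was 273, 280 and 266 in WT and 249, 266 and 249 in MZsmad4a, where the ranges just failed to overlap. The sign in CPM turned with scaling by total alone and with limma on TPM (log2 fold changes of -0.07 and -0.10). The median log2 fold changes of all tested genes in the same fits were -0.11 and -0.09.

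The N-cadherin gene CDH2 (ENSDARG00000018693) was at 367, 380 and 366 CPM in WT and at 485, 319 and 337 CPM in MZsmad4a (log2 fold change 0.04, SE 0.15, 95% interval -0.31 to 0.39, edgeR adjusted p = 0.937). MZsmad4a replicate 1 lay above all WT libraries and the other 2 below them. Without that library the log2 fold change was -0.18 (adjusted p = 0.348).

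The same library stood apart for cdh6 (ENSDARG00000014522), a type II cadherin known from the developing kidney and neural crest. Its level was 314, 306 and 365 CPM in WT and 597, 315 and 305 CPM in MZsmad4a (log2 fold change 0.30, SE 0.24, 95% interval -0.26 to 0.87, edgeR adjusted p = 0.586). Without MZsmad4a replicate 1 the log2 fold change was -0.08, so the positive value rested on that library. MZsmad4a replicate 1 was the highest of the mutant libraries for 18 of the 35 tested members (51.4%), compared with 36.5% of all tested genes. Among the WT libraries, replicate 3 was the highest for 16 of the 35 (45.7%, against 34.6% of all tested genes). MZsmad4a replicate 1 also had the lowest margin sum (450 TPM) and the highest yolk syncytial layer sum (1047 TPM), whose part in these levels was not tested.

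A change in the balance of E- to N-cadherin is the classical readout of an epithelial to mesenchymal switch. The ratio of cdh1 to CDH2 in TPM was 1.86, 2.02 and 1.95 in WT and 1.48, 2.32 and 2.14 in MZsmad4a. Its mean log2 value was 0.96 ± 0.06 in WT and 0.96 ± 0.35 in MZsmad4a (SD, n = 3; difference 0.00, two-sided exact permutation p = 1). With 3 libraries against 3 the smallest p that this test can give is 0.1. The mutant libraries spread over a wider range than the WT libraries. Without MZsmad4a replicate 1 the log2 difference was 0.20, and the exact permutation p of 0.1 was then the smallest that 3 libraries against 2 can give.

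The other classical cadherins were near the limit of detection. CDH7 was at 1.79, 1.62 and 1.20 CPM in WT and at 3.40, 1.93 and 1.84 CPM in MZsmad4a, without overlap (log2 fold change 0.64, SE 0.36, edgeR adjusted p = 0.408). CDH11, a cadherin of mesenchymal cells, had log2 fold changes of -1.24 to 0.17 over the fits that left out 1 library, at 4 to 29 counts per library. Of the untested genes, cdh10a had 1, 4 and 7 counts in WT and 38, 9 and 11 counts in MZsmad4a. The genotypes did not overlap there either, and the gene was named after its values were seen. The vascular cadherin cdh5 had 1 to 4 counts in every library. Its genotypes also did not overlap in CPM (0.143 to 0.377 in WT, 0.0576 to 0.110 in MZsmad4a). The muscle cadherin CDH15 had no counts, in embryos in which vessels and muscle have not formed.

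The non-clustered protocadherins held 7 of the 10 tested members whose genotypes did not overlap, from 15 genes tested (46.7%, against 23.6% of all genes). The 7 include both PCDH18 genes, and PCDH10 with pcdh10b, which share a symbol. How reads were divided within these pairs was not tested, so their members may not be independent. Non-clustered protocadherins adhere more weakly than classical cadherins and lack the catenin-binding tail. The abundant member of the class, PCDH1 (ENSDARG00000036175), was not among the 7. It was at 694, 526 and 663 CPM in WT and at 731, 623 and 529 CPM in MZsmad4a (95% interval of the log2 fold change -0.33 to 0.33).

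PCDH18 had the smallest adjusted p of the tested members in edgeR, and pcdh10b in DESeq2. There are 2 genes with the symbol PCDH18. The more abundant, ENSDARG00000052494, was at 46.7, 47.2 and 51.8 CPM in WT and at 79.5, 79.1 and 71.9 CPM in MZsmad4a. Every mutant library lay above every WT library, and the lowest mutant library exceeded the highest WT library by more than the spread within either genotype. The level was 1.58-fold higher in MZsmad4a (log2 fold change 0.66, SE 0.10, 95% interval 0.42 to 0.90), with an adjusted p of 0.0167 in edgeR's quasi-likelihood test and 1.32e-05 in DESeq2. Without filtering low counts, edgeR's adjusted p was 0.00976, while limma on TPM gave 0.0686 and the fits without 1 library gave 0.0345 to 0.0780.

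The second PCDH18 gene, ENSDARG00000089805, was far lower but lay in the same direction. It was at 1.98, 2.67 and 3.65 CPM in WT and at 5.19, 6.07 and 4.15 CPM in MZsmad4a, again without overlap (log2 fold change 0.87, SE 0.29, edgeR adjusted p = 0.173). The expected counts of both copies were whole numbers in every library, and how reads were divided between the copies was not tested. Summed, the pair gave a log2 fold change of 0.67 (adjusted p = 0.0171). In zebrafish, the duplicated pcdh18 genes have been linked to cell migration, and the symbols do not show which copy is which.

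Among the 35 tested genes, the largest negative log2 fold change in edgeR was that of pcdh10b (ENSDARG00000102824), a δ2-protocadherin. It had 210, 268 and 188 counts in WT and 61, 43 and 18 counts in MZsmad4a, corresponding to 19.8, 12.8 and 10.2 CPM and 3.52, 2.37 and 0.945 CPM. The genotypes did not overlap, and the highest mutant library was well below the lowest WT library. The log2 fold change was -2.64 (SE 0.45, 95% interval -3.68 to -1.61), with an adjusted p of 0.0226 in edgeR's quasi-likelihood test and 7.93e-08 in DESeq2. Without filtering low counts, edgeR's adjusted p was 0.00334. Leaving out 1 library at a time gave log2 fold changes of -3.09 to -2.26 and adjusted p of 0.0227 to 0.0894.

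A second gene of the same symbol, PCDH10 (ENSDARG00000099729), had the opposite sign. It had 5, 11 and 6 counts in WT and 61, 39 and 18 counts in MZsmad4a, without overlap (log2 fold change 2.30, SE 0.55, 95% interval 1.05 to 3.56, edgeR adjusted p = 0.0706, DESeq2 0.0102). In 2 of the 3 mutant libraries the expected counts of the copies were equal. The average transcript of this gene was 596 to 693 bases long, and that of pcdh10b 2484 to 4672 bases. The estimation can split reads between such copies, which can give fractional counts, but the expected counts of both genes were whole numbers in every library. Whether reads were split was not tested, so the direction of each alone is uncertain. The summed pair was at 20.2, 13.3 and 10.6 CPM in WT and at 7.03, 4.52 and 1.89 CPM in MZsmad4a, still without overlap (log2 fold change -1.71, SE 0.45, edgeR adjusted p = 0.0943).

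The paraxial protocadherin gene pcdh8 (ENSDARG00000006467), a marker of the forming mesoderm, was at 194, 222 and 250 CPM in WT and at 161, 182 and 171 CPM in MZsmad4a. All mutant libraries lay below all WT libraries. The mutant level was 0.772 of the WT level (log2 fold change -0.37, SE 0.11, 95% interval -0.62 to -0.12, edgeR adjusted p = 0.125, DESeq2 0.121), which passed neither threshold. Another gene with this symbol, PCDH8 (ENSDARG00000102185), had 0, 3 and 8 counts in WT and 5, 7 and 5 counts in MZsmad4a. It did not pass edgeR's filter on low counts. Summed, the pair gave a log2 fold change of -0.37 (edgeR adjusted p = 0.127). All 5 margin markers had negative log2 fold changes, from -0.62 to -0.39, 3 of them without overlap and none with an edgeR adjusted p under 0.05. Those with the smallest adjusted p were the T-box genes tbxta and tbx16 (0.0646 for each in edgeR). Their part in the pcdh8 level was not tested.

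**Figure D4:**
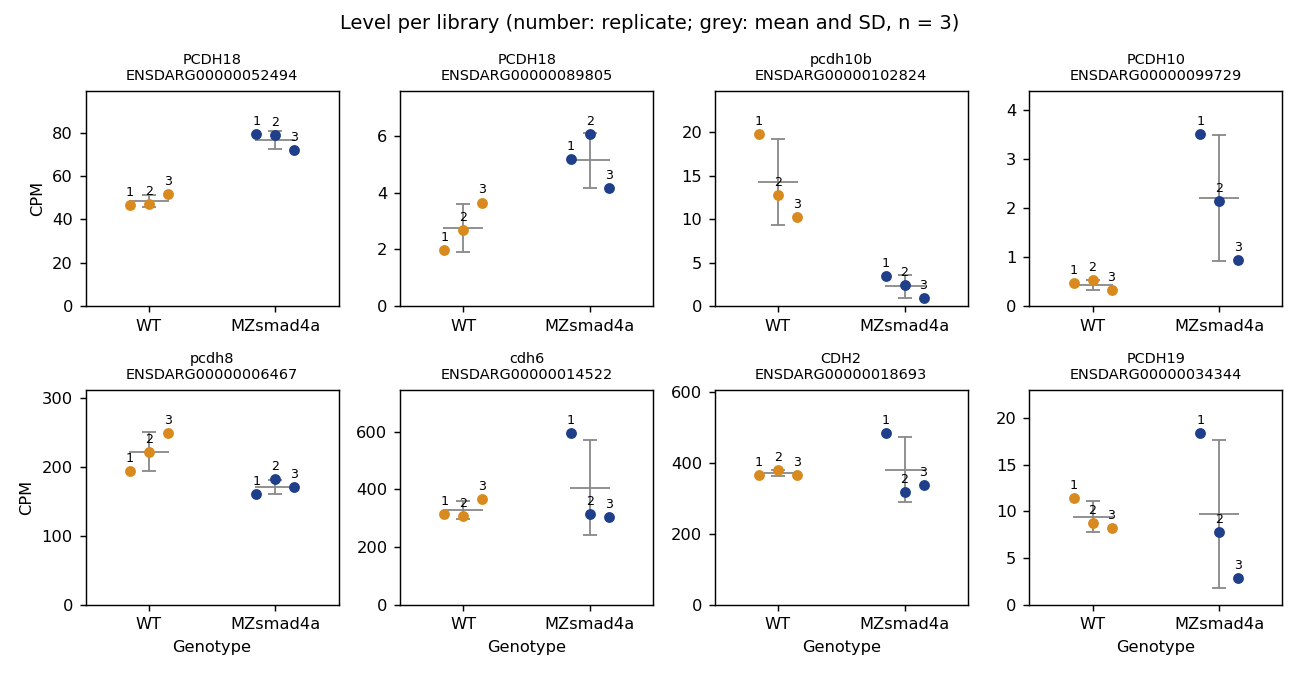
CPM of 8 genes in each library (numbered by replicate), with the genotype mean and SD (grey, n = 3). The genotypes are separate for both PCDH18 genes, pcdh10b, PCDH10 and pcdh8, and MZsmad4a replicate 1 is the highest library for cdh6, CDH2 and PCDH19.

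2 further protocadherins without overlap were low. The pcdh15a gene, a homologue of a hair cell tip-link component, was at 1.04, 1.33 and 2.40 CPM in WT and at 0.346, 0.717 and 0.368 CPM in MZsmad4a (log2 fold change -1.74, SE 0.48, edgeR adjusted p = 0.110). It shares its symbol with PCDH15 (log2 fold change 0.55), and the summed pair gave -0.86 (adjusted p = 0.348). The other gene, pcdh17, had a log2 fold change of -1.69 (SE 0.54, edgeR adjusted p = 0.159) and was named after its values were seen. PCDH19, which acts with N-cadherin in zebrafish neurulation, was at 11.4, 8.72 and 8.23 CPM in WT and at 18.4, 7.83 and 2.89 CPM in MZsmad4a. Its mutant libraries lay on both sides of the WT range (log2 fold change 0.04, SE 0.55, 95% interval -1.22 to 1.31).

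Of the 37 clustered protocadherins, which give neurons a combinatorial surface identity, 16 had any count and 2 were tested. The highest, pcdh2g28, was at 3.96, 3.86 and 1.91 CPM in WT and at 4.55, 1.77 and 1.94 CPM in MZsmad4a, with overlap (log2 fold change -0.23, SE 0.45). The other tested gene, pcdh2ab2, had 0 counts in 1 library of each genotype (edgeR adjusted p = 0.544). The 18 pcdh1g genes together had 11, 2 and 6 counts in WT and 2, 1 and 1 counts in MZsmad4a (0.0953 to 1.04 and 0.0525 to 0.115 CPM, with overlap). All 19 of these WT counts belonged to pcdh1g32, which had none in MZsmad4a. With 3 counts over the mutant group taken as its limit, the level over the WT group was at least 6.91-fold higher. That bound covers counting error only and not the spread between libraries, and 11 of the counts came from WT replicate 1. WT replicate 2, at 2 counts (0.0953 CPM), lay below the limit given above for a count of 0. The gene pcdh1g32 did not pass edgeR's filter on low counts, and its adjusted p in DESeq2 was 0.0387. The 13 pcdh2a genes had 37.1, 20.3 and 22.6 expected counts in WT and 16.3, 8.8 and 4.4 in MZsmad4a. Scaled to library size, these were 3.49, 0.967 and 1.23 CPM and 0.938, 0.485 and 0.232 CPM, which just failed to overlap, and pcdh2ab12 was among them with 1.15 to 7.17 in WT and 0 to 2.56 in MZsmad4a.

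The other cadherins were also low. CDH17, the liver-intestine cadherin, was at 1.88, 1.33 and 2.24 CPM in WT and at 5.42, 6.34 and 1.94 CPM in MZsmad4a, so that 2 mutant libraries lay above the WT range and 1 within it (log2 fold change 1.33, SE 0.46, edgeR adjusted p = 0.183). The gene cdh26.1 had the highest level of the group, at 5.89 to 11.4 CPM in WT and 6.73 to 9.57 CPM in MZsmad4a (log2 fold change 0.02, SE 0.28). CDH23, known from hair cell tip links, was at 0.471, 0.667 and 4.69 CPM in WT and at 1.15, 1.32 and 1.47 CPM in MZsmad4a. Its negative log2 fold change of -0.59 rested on WT replicate 3, without which it was 1.16. The gene cdh30 had 8, 30 and 11 counts in WT and 8, 0 and 0 counts in MZsmad4a, with no overlap in CPM (edgeR adjusted p = 0.237).

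The partners of cadherins at junctions and the factors that regulate cadherins were listed separately, as 46 and 43 genes. Of the 41 junction partners tested, none passed an adjusted p of 0.01 in edgeR (against 0.712% of all genes). In edgeR 15 of the 41 had an unadjusted p under 0.05, a larger share than the 17.5% of all genes. DESeq2 called 2 of the 46 listed, 1 lower and 1 higher (against 3.71% of the genes to which it gave an adjusted p). The median log2 fold change of the 41 tested was 0.05, beside -0.01 for all genes. The genotypes did not overlap for 12 of them (29.3%, against 23.6% of all genes), 3 lower and 9 higher in MZsmad4a (against 11.8% in each direction). The gene with an edgeR adjusted p under 0.05 was TJP1 (ENSDARG00000077506, ZO-1, a tight junction scaffold). It was at 195, 121 and 161 CPM in WT and at 63.9, 84.3 and 92.6 CPM in MZsmad4a, without overlap (log2 fold change -0.99, SE 0.20, edgeR adjusted p = 0.0393, DESeq2 0.000297). Without filtering low counts, edgeR's adjusted p was 0.00986, while limma on TPM gave 0.0707 and the fits without 1 library gave 0.0383 to 0.116. The second ZO-1 gene on the list, tjp1b (ENSDARG00000079374), had no edgeR adjusted p under 0.05. The most abundant partners were JUP (plakoglobin, ENSDARG00000070787), PPL (periplakin) and DSP (desmoplakin, ENSDARG00000022309). Their log2 fold changes were 0.19, 0.22 and 0.28, with edgeR adjusted p of 0.229, 0.369 and 0.0819. The second gene named DSP (ENSDARG00000076673) had means of 122 ± 20.3 CPM over the WT and 186 ± 15.7 CPM over the mutant libraries (SD, n = 3), and DESeq2 called it (adjusted p = 0.00498).

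Of the 38 cadherin regulators tested, none passed an adjusted p of 0.01 in edgeR (against 0.712% of all genes). In edgeR 7 of the 38 had an unadjusted p under 0.05, a share close to the 17.5% of all genes. DESeq2 called 2 of the 43 listed, both lower in MZsmad4a (against 1.94% lower of the genes to which it gave an adjusted p). The median log2 fold change of the 38 tested was -0.06. Both genes called by DESeq2 belong to families known for repression of E-cadherin and for mesenchymal fate. The zinc finger gene zeb2a was at 12.6, 12.4 and 8.83 CPM in WT and at 5.01, 3.64 and 2.26 CPM in MZsmad4a, without overlap (log2 fold change -1.63, SE 0.31, edgeR adjusted p = 0.0320, DESeq2 4.87e-05, and 0.0265 to 0.116 in edgeR without 1 library). The bHLH gene twist2 had 25, 33 and 17 counts in WT and 1, 0 and 0 counts in MZsmad4a (edgeR adjusted p = 0.0106, DESeq2 0.000166). In edgeR it was called without filtering low counts (adjusted p = 0.00209) and with libraries scaled by total alone (0.00993). The other listed genes of the ZEB and TWIST families overlapped between the genotypes. A second ZEB2 gene (ENSDARG00000078416), zeb1a and ZEB1 had log2 fold changes of 0.30, 0.03 and 0.21, and twist1a, twist1b and twist3 were not tested. The Snail genes snai1b and snai2 were at 0.25 and -0.31, also with overlap. The most abundant regulators were pou5f3, which is required for normal cdh1 trafficking in zebrafish epiboly, the Snail gene snai1a, and epcam. Their log2 fold changes were -0.06, -0.28 and -0.19, with edgeR adjusted p of 0.810, 0.285 and 0.448.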

How the data were processed

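RNA was extracted from 3 WT and 3 MZsmad4a pools of 25 embryos. The authors trimmed the paired reads, aligned them to GRCz11 with STAR and deposited RSEM estimates per gene, namely expected counts, which are not normalized, and TPM. RSEM divides reads that match several genes by estimation, which matters for duplicated genes. Expected counts were rounded and tested with edgeR 4.0.16 (R 4.3.3; filterByExpr, TMM, glmQLFit, glmQLFTest, no term besides genotype, p-values adjusted by Benjamini-Hochberg over 15720 genes and called under 0.01). The SE was taken from the fold change and the F value, as |log2 fold change|/√F. CPM uses TMM-scaled totals. DESeq2 1.42.0 and limma 3.58.1 on log2(TPM + 1) were alternatives. The study itself called genes with DESeq2, at a false discovery rate of 0.01 or less. Python 3.11.15 with pandas 2.3.3 and scipy 1.17.1 made the summaries.

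Symbols came from a table that matched 26433 of 32266 identifiers, with its capitals kept, while pcdh10b, pcdh15a and pcdh17 were named from the study's supplementary table. Members, lists and tests were chosen with earlier results of these data known. The members named by rule are those past an adjusted p of 0.05 in edgeR or 0.01 in DESeq2, and the 4 most abundant of each class. They also include those with known roles at gastrulation and the 5 with the largest fold change. CTNNAL1, CTNNA2, ctnnd2b, cdh10a, cdh5, CDH15 and pcdh17 were named outside these rules. PCDH15 and PCDH8 were named as second genes of a symbol. Of 51 and 46 symbols on the lists of partners and regulators, 48 and 43 were matched. Replicates differed by more than sampling noise, and p-values measure the spread between pools. On simulated counts for this comparison over 15720 genes, edgeR recovered 36 of 100 genes changed by 1 on the log2 scale and 86 of 100 changed by 2, with 0 false calls, and DESeq2 recovered 44 and 87 with 8 false calls in all. The changed genes were drawn only from genes above a floor on the mean count. Each gene was simulated with the spread typical of its abundance, so the recovery does not describe low-count members or unusually variable genes.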

Additional observations from a re-analysis of the deposited data

How the results depend on the processing

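No member passed an adjusted p of 0.01 in edgeR with the replicate block, RLE scaling, scaling by total alone, limma, or any fit without 1 library (0 to 0 calls). DESeq2, no filter on low counts and a threshold of 0.05 each gave 2. For the partners and regulators, the count of 0 became 4 with DESeq2, 1 with scaling by total alone, 2 without a filter and 3 at 0.05, and stayed at 0 to 0 when a library was left out. The count over all genes was 112 (77 lower, 35 higher). It was 658 with DESeq2, 283 without a filter, 461 at 0.05 and 24 to 71 with 1 library left out, and scaling by total alone gave 105 lower and 24 higher. The cause was not tested.

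Across genes, deviations from the genotype mean correlated at 0.11, -0.03 and 0.14 for same-numbered libraries. For differently numbered libraries the correlations ran from -0.20 to 0.08. With so few libraries per genotype, these values cannot decide whether the numbers pair the libraries. With the replicate block, 29 genes passed, PCDH18 had an adjusted p of 0.0591 and TJP1 of 0.0943, PCDH19 was at -0.28, and the cdh1 to CDH2 difference stayed at 0.00.

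With scaling by total alone, log2 fold changes reversed for CTNNB1 (-0.00042), ctnnb2 (-0.065), ctnna1 (-0.077), cdh1 (-0.073), CDH2 (-0.073), PCDH19 (-0.070) and cdh26.1 (-0.085). With limma on TPM they reversed for CTNNB1 (-0.019), ctnnb2 (-0.071), ctnna1 (-0.073), cdh1 (-0.10), CDH2 (-0.10), PCDH19 (-0.22) and cdh26.1 (-0.043). PCDH1 was at 0.013 with DESeq2, 0.0046 with RLE and 0.017 without a filter. PCDH10 was at -1.71 once summed with pcdh10b, an alternative chosen after seeing the data. Leaving out 1 library crossed 0 for CDH11 (-1.24 to 0.17), CDH2 (-0.18 to 0.15), CDH23 (-1.02 to 1.16), CTNND1 (-0.10 to 0.011), PCDH1 (-0.12 to 0.11), PCDH19 (-0.81 to 0.48), cdh26.1 (-0.18 to 0.33), cdh6 (-0.080 to 0.48), ctnna1 (-0.043 to 0.16), ctnnb2 (-0.038 to 0.10), pcdh2g28 (-0.79 to 0.010), pou5f3 (-0.13 to 0.0053) and the log2 cdh1 to CDH2 ratio (-0.13 to 0.20, the highest without MZsmad4a replicate 1). Each alternative run kept the direction of PCDH18, pcdh10b and pcdh8.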
